A study of Canis lupus familiaris with 6 samples.

Results

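The 10 MHC class I presentation genes were described in 6 canine primary osteosarcoma lines: B2M, DLA-88, DLA-79, DLA-64, TAP1, TAP2, TAPBP, PSMB8, PSMB9 and PSMB10. They were found on an Affymetrix canine array as the 21 probe sets whose only gene symbol is one of these, of 29254 probe sets with 1 symbol. The brightest probe set over the 6 lines stood for each gene, so the members are 10 of 15115 named genes. The groups are set by the label for tumour growth after transplantation into mice. UWKOS1, UWKOS3 and UWKOS7 are tumorigenic (n = 3), and UWKOS2, UWKOS6 and UWKOS8 are non-tumorigenic (n = 3). All 6 were primary tumour cultures handled alike, in medium with 10% calf serum, and taken at about 70% to 80% confluency. The RNA came from these cultures, not from tumours grown in mice, and the labels name no genotype, animal age or agent and no reference line.

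Nucleated cells show peptides from their own proteins to CD8 T cells on MHC class I molecules. The proteasome cuts the proteins, the TAP transporter moves the peptides into the endoplasmic reticulum, tapasin helps to load them, and the loaded heavy chain reaches the cell surface only in complex with beta-2-microglobulin. In dogs the heavy chains are called dog leukocyte antigens (DLA). DLA-88 is the highly polymorphic classical heavy chain, while DLA-79 and DLA-64 are regarded as non-classical. Interferon-gamma raises most of these genes, and tumours are known to lose some of them. In the RefSeq gene order for dog, TAP2, PSMB8, TAP1 and PSMB9 are 4 consecutive genes.

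Each line was hybridised to 1 array, and its values are log2 expression as deposited, with array medians between 6.03 and 6.05. All differences below are tumorigenic minus non-tumorigenic on that log2 scale, and a negative difference means lower in the tumorigenic lines. The number of arrays limits the precision, and p-values set a group difference against the spread between these lines. With 1 array per line, that spread also holds any variation between arrays and RNA samples. At the gene level 9145 genes whose mean was at or above 6.07, the median of all probe sets, were tested with limma. Of these, 12.1% passed an adjusted p of 0.05 in either direction, 4.63% lower and 7.5% higher in the tumorigenic lines. Markers of leukocytes were mostly dim: 8 of 10 measured lay below the filter, among them PTPRC, the pan-leukocyte antigen, at 4.86 to 5.17. Of 10 macrophage and dendritic markers 8 were dim as well. Of 9 measured osteoblast markers 6 were bright enough to be tested, among them COL1A1 at 12.28 to 13.51 and SPARC at 12.41 to 13.71. RUNX2 (5.84 to 6.52) and BGLAP (5.32 to 6.64) lay near the filter, and DLX5 ranged from 5.23 to 8.34. ALPL, IBSP and SPP1 lay below the filter on average, SPP1 being bright in UWKOS1 alone. The mesenchymal marker VIM lay between 14.42 and 14.60 in every line.

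Of the 10 members, 9 were bright enough to be tested and 1 passed, B2M, which fell; 8 did not pass and PSMB8 was too dim. The share called, 1 of 9, is close to the 12.1% of all tested genes, so the members as a set were not called more often than other genes. Their median difference was -0.19, beside 0.03 for all genes tested, with 5 lower and 4 higher on average. On the level of probe sets 2 of the 16 tested passed, both of B2M, beside 12% of all 21462 tested probe sets. The remaining 5 of the 21 lay below the filter.

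B2M encodes beta-2-microglobulin, the invariant light chain that every class I molecule needs for folding and surface transport. Its log2 values were 11.98 in UWKOS1, 12.35 in UWKOS3 and 12.39 in UWKOS7, against 13.15 in UWKOS2, 13.40 in UWKOS6 and 13.60 in UWKOS8. Every tumorigenic line lay below every non-tumorigenic line. Tumorigenic lines averaged 12.24 ± 0.22 (SD, n = 3) and non-tumorigenic ones 13.39 ± 0.22 (SD, n = 3). The difference of -1.14 (SE 0.20, 95% interval -1.62 to -0.67) corresponds to a 2.21-fold lower level (limma adjusted p = 0.0231). B2M was the one tested member whose groups did not overlap, while 38.4% of all tested genes did not overlap between the groups.

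The second B2M probe set gave the same order of groups. It read 11.09, 11.53 and 11.58 in UWKOS1, UWKOS3 and UWKOS7 and 12.54, 12.92 and 12.95 in UWKOS2, UWKOS6 and UWKOS8. Its difference was -1.40 (SE 0.21, limma adjusted p = 0.0199 over all probe sets), or 2.64-fold lower. In both probe sets UWKOS1 held the lowest value and UWKOS8 the highest.

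The call for B2M depended on single lines. Its difference stayed between -1.01 and -1.26 when any 1 line was left out, but the limma adjusted p was 0.0543 without UWKOS3, 0.0978 without UWKOS6 and 0.0708 without UWKOS8. The ratio of 3-prime to 5-prime signal of the GAPDH controls, a measure of RNA integrity and labelling, was higher in UWKOS6 and UWKOS8 (1.21 and 1.98 on the log2 scale) than in the other 4 lines (0.86 to 1.07). With this ratio as a covariate the B2M difference was -0.95, short of the threshold (limma adjusted p = 0.105). Without both UWKOS6 and UWKOS8 the difference was -0.91, with UWKOS2 as the lone non-tumorigenic line. Markers of fibroblasts also moved in this direction: 9 of 10 tested were lower on average in the tumorigenic lines, with a median of -1.31, and 0 of these passed. The mean log2 level of the 11 measured fibroblast markers ranged from 9.35 to 10.40 over the tumorigenic and from 11.00 to 11.33 over the non-tumorigenic lines. Their summed linear signal ranged from 51525 to 64682 and from 92994 to 102424. Of the 6 tested osteoblast markers 5 were lower on average, with a median of -0.58 and 0 past the threshold, and the summed signal of the 9 measured ranged from 21186 to 37419 and from 42884 to 50387. The epithelial keratin KRT7 rose by 0.81 (limma adjusted p = 0.0445), with EPCAM, CDH1, KRT8 and KRT18 below the filter on average. UWKOS1 read 7.65 for EPCAM, and UWKOS1 and UWKOS3 read 6.49 and 6.64 for KRT8 and 7.44 and 6.41 for KRT18. The summed epithelial signal ranged from 214 to 580 over the tumorigenic and from 129 to 166 over the non-tumorigenic lines. Of 7 measured endothelial markers 3 were tested, 1 higher and 2 lower on average, and 0 passed. The higher one, KDR, differed by 1.11 (limma adjusted p = 0.0909). The summed endothelial signal ranged from 543 to 718 over the tumorigenic and from 481 to 532 over the non-tumorigenic lines. The macrophage marker CD68 differed by -1.07 without passing (limma adjusted p = 0.143), and the macrophage and dendritic sum ranged from 348 to 459 and from 437 to 493. The part of these markers in the B2M result was not tested.

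**Figure D1:**
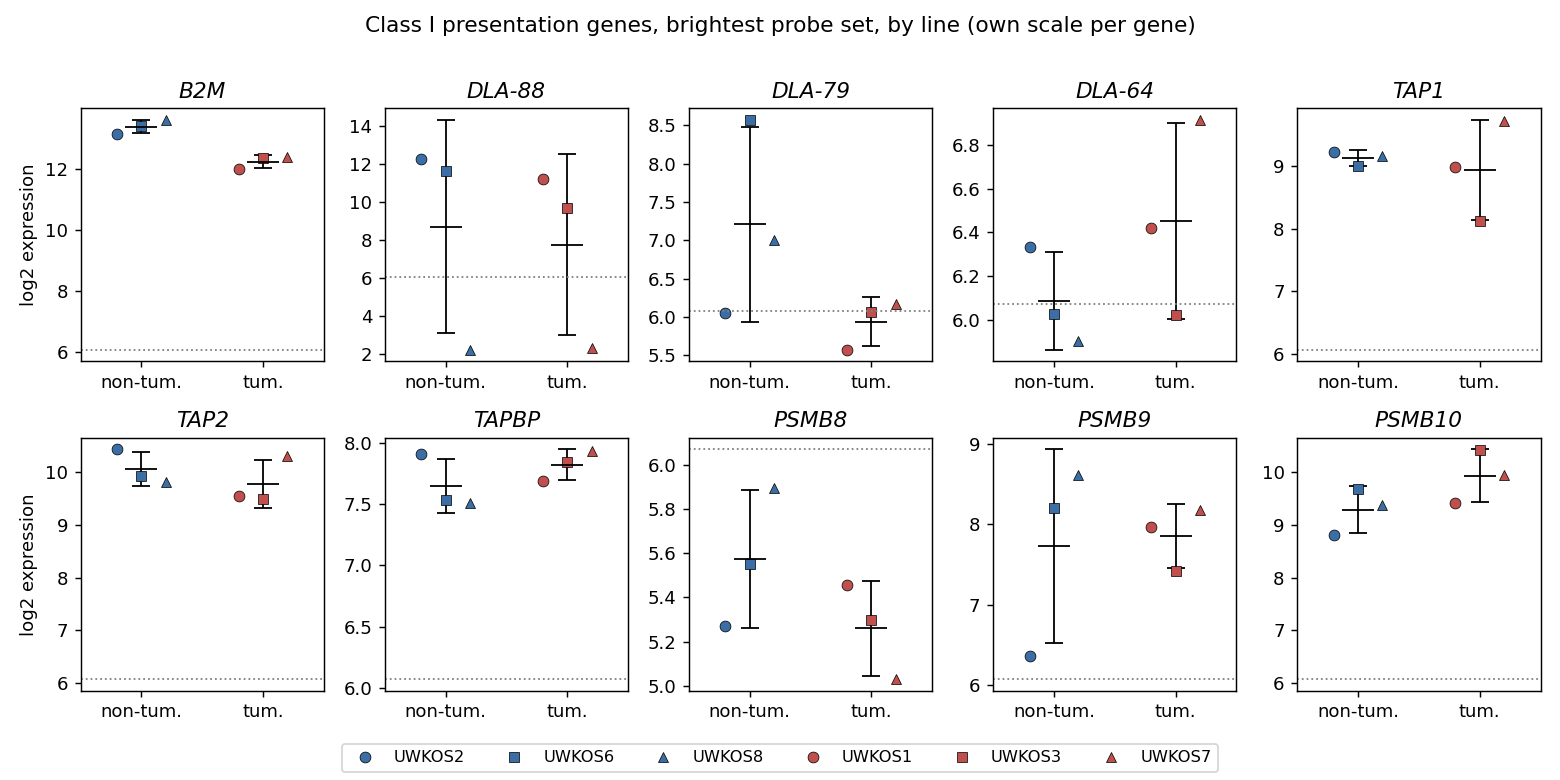
Log2 expression (vertical axis, own scale for each gene) of the 10 class I presentation genes in the non-tumorigenic (blue, non-tum.) and tumorigenic (red, tum.) lines, each symbol a line, with the group mean and SD (n = 3) in black and the dim-probe filter of 6.07 as a dotted line. B2M separates the groups, at 11.98 to 12.39 against 13.15 to 13.60, while the groups of the other 9 genes overlap and DLA-88 reads 2.30 in UWKOS7 and 2.22 in UWKOS8.

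Over the 6 lines the heavy chain DLA-88, which carries the peptide groove, had a Pearson r of -0.13 with B2M. On its brightest probe set the tumorigenic UWKOS1 and UWKOS3 read lower than the non-tumorigenic UWKOS2 and UWKOS6. That order leaves out UWKOS7 and UWKOS8, which were set aside for their own DLA-88 values. The other DLA-88 probe set did not keep it, with UWKOS1 at 7.55 above UWKOS6 at 7.38. The brightest DLA-88 probe set read 11.24 in UWKOS1, 9.71 in UWKOS3, 12.26 in UWKOS2 and 11.66 in UWKOS6, but 2.30 in UWKOS7 and 2.22 in UWKOS8. These last 2 values lie at the bottom of the array, where the lowest value of any probe set was 1.97. DLA-88 is highly polymorphic, and whether this probe set matches the alleles of UWKOS7 and UWKOS8 was not tested, so a low value here is not shown to be a low level of DLA-88 RNA. The pattern cuts across the label, since 1 line of each group is low. The group difference was -0.96 with an SE of 3.37 (limma adjusted p = 0.868), and its 95% interval from -9.07 to 7.15 is too wide to show a difference of either sign.

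The other DLA-88 probe set read the same 2 lines as bright. UWKOS7 held its highest value, 9.75, and UWKOS8 stood at 8.19. UWKOS2 was at 8.90, UWKOS1 at 7.55, UWKOS6 at 7.38 and UWKOS3 at 6.83. The groups overlapped, with a difference of -0.11 (SE 0.78, limma adjusted p = 0.935). This probe set was only 0.13 dimmer over the 6 lines than the one that stands for the gene, with means of 8.10 and 8.23, so the gene-level value of DLA-88 rests on a narrow choice.

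Another 2 probe sets are annotated to both DLA-64 and DLA-88 and count as members of neither. The brighter read 11.63, 10.78 and 13.47 in UWKOS1, UWKOS3 and UWKOS7, and 12.65, 12.23 and 12.38 in UWKOS2, UWKOS6 and UWKOS8. It was bright in every line, UWKOS7 and UWKOS8 included, and highest in UWKOS7. The dimmer read 7.14, 6.16 and 8.48 in the tumorigenic lines and 9.01, 7.04 and 7.65 in the non-tumorigenic lines, and it too was lowest in UWKOS3, but highest in UWKOS2. Their differences were -0.46 and -0.64 and neither passed (limma adjusted p = 0.661 and 0.577). Class I heavy chain genes such as DLA-88 and DLA-64 are similar in sequence, so a probe set can read more than 1 of them. The names are those of the annotation and the gene behind each value is uncertain.

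**Figure D2:**
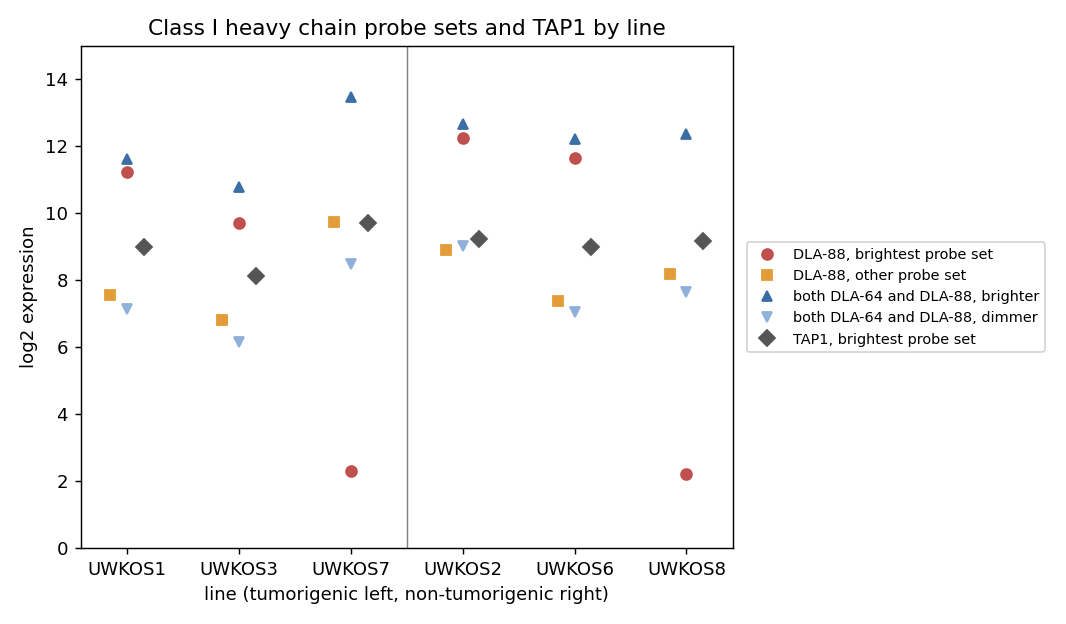
Log2 expression (vertical axis) by line (horizontal axis) for both DLA-88 probe sets, the 2 probe sets annotated to both DLA-64 and DLA-88, and the brightest TAP1 probe set, 1 symbol per array, with the second DLA-88 probe set and TAP1 set slightly aside. The brightest DLA-88 probe set reads 2.30 and 2.22 in UWKOS7 and UWKOS8, where the other heavy chain probe sets drawn here read between 7.65 and 13.47.

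DLA-79, a non-classical heavy chain gene, lay below the filter in 3 of the 6 lines and was highest in UWKOS6. Its brightest probe set read 5.57, 6.07 and 6.17 in UWKOS1, UWKOS3 and UWKOS7, and 6.05, 8.57 and 7.00 in UWKOS2, UWKOS6 and UWKOS8. Tumorigenic lines averaged 5.94 ± 0.32 (SD, n = 3) and non-tumorigenic ones 7.21 ± 1.27 (SD, n = 3). The groups overlapped and the difference of -1.27 did not pass (limma adjusted p = 0.209). Its size rested on UWKOS6: the difference was -0.59 without that line and -0.12 without both UWKOS6 and UWKOS8. With all 6 lines kept, the mean of the 3 probe sets differed by -0.58. Its other 2 probe sets lay below the filter, at means of 5.15 and 4.69, and neither passed without the filter (limma adjusted p = 0.222 and 0.806).

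DLA-64, the further non-classical heavy chain, lay near the filter in every line. It read 6.42, 6.02 and 6.91 in UWKOS1, UWKOS3 and UWKOS7 and 6.34, 6.03 and 5.90 in UWKOS2, UWKOS6 and UWKOS8. The groups overlapped, and the difference of 0.36 had a 95% interval from -0.27 to 1.00 (limma adjusted p = 0.384).

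TAP1 and TAP2 form the transporter that carries cytosolic peptides into the endoplasmic reticulum, and neither differed beyond the spread between lines. TAP1 read 8.99 in UWKOS1, 8.12 in UWKOS3 and 9.71 in UWKOS7, and 9.22, 8.99 and 9.16 in UWKOS2, UWKOS6 and UWKOS8. Both the lowest and the highest line were tumorigenic, with the non-tumorigenic lines in between. The SD was 0.80 among the tumorigenic and 0.12 among the non-tumorigenic lines (n = 3 each). The difference was -0.19 with a 95% interval from -1.13 to 0.75 (limma adjusted p = 0.772). Its other 2 probe sets differed by 0.16 and 0.26, opposite in sign, and neither passed (limma adjusted p = 0.776 and 0.508).

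TAP2 read 9.55, 9.49 and 10.30 in UWKOS1, UWKOS3 and UWKOS7, and 10.43, 9.93 and 9.81 in UWKOS2, UWKOS6 and UWKOS8. UWKOS3 was again lowest, UWKOS7 was highest among the tumorigenic lines, and the groups overlapped. The difference was -0.28 with a 95% interval from -0.97 to 0.41 (limma adjusted p = 0.544). Its other probe sets differed by -0.34 and 0.09 without passing.

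TAPBP encodes tapasin, which holds the empty class I molecule at the transporter, and it varied least among the members. It read 7.69, 7.84 and 7.93 in the tumorigenic lines UWKOS1, UWKOS3 and UWKOS7 and 7.90, 7.53 and 7.51 in the non-tumorigenic lines UWKOS2, UWKOS6 and UWKOS8. Its range over the 6 lines was 0.42. The difference was 0.17 with a 95% interval from -0.25 to 0.60 (limma adjusted p = 0.538), and its other probe set differed by -0.10. Among the 5 members with at least 2 tested probe sets, the signs disagreed in 3 (TAP1, TAP2 and TAPBP); over all such genes they disagreed in 24.5% of 4678.

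TAP1 ordered the lines like some heavy chain probe sets and unlike others. Over the 6 lines TAP1 and the brighter probe set of both DLA-64 and DLA-88 had a Pearson r of 0.96 and a Spearman rho of 1.00. With the other DLA-88 probe set TAP1 had an r of 0.89 and a rho of 0.94, and with TAP2 an r of 0.75 and a rho of 0.89. When UWKOS3 and UWKOS7, the lines farthest from the TAP1 median, were left out, these r were 0.82, 0.97 and 0.73 over 4 lines. The probe set that stands for DLA-88 had an r of -0.46 and a rho of -0.09 with TAP1, DLA-79 an r of 0.04 and DLA-64 an r of 0.65. B2M had an r of 0.19 with TAP1 and of 0.31 with the brighter heavy chain probe set. These are descriptions over 6 arrays that share their array and RNA sample between the genes, picked from 78 pairs of 10 genes and 3 added heavy chain probe sets. Over the 45 pairs of member genes alone, r ranged from -0.91 to 0.75 with a median of -0.01.

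The immunoproteasome replaces the catalytic subunits of the standard proteasome with PSMB8, PSMB9 and PSMB10 and yields peptides that bind class I well. PSMB10 read 9.43 in UWKOS1, 10.43 in UWKOS3 and 9.94 in UWKOS7, and 8.80 in UWKOS2, 9.69 in UWKOS6 and 9.39 in UWKOS8. UWKOS3 was the highest and UWKOS2 the lowest line, and the groups overlapped through UWKOS6. The difference of 0.64, with a 95% interval from -0.16 to 1.45, did not pass (limma adjusted p = 0.241). Its other probe set was dim and differed by 0.55.

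PSMB9 varied mainly within the non-tumorigenic group. It read 6.35 in UWKOS2, the lowest of the lines, and 8.21 in UWKOS6 and 8.62 in UWKOS8, the highest. The tumorigenic lines UWKOS1, UWKOS3 and UWKOS7 lay between, at 7.97, 7.41 and 8.18. The difference was 0.13 with a 95% interval from -1.30 to 1.55 (limma adjusted p = 0.903). TAP1, its neighbour in the gene order, read 9.22 in UWKOS2, the second highest of its own 6 values, so the 2 neighbours ranked this line differently.

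PSMB8 lay below the filter on both of its probe sets, with means of 5.42 and 5.17 over the 6 lines. The brighter read 5.46, 5.30 and 5.03 in UWKOS1, UWKOS3 and UWKOS7 and 5.27, 5.55 and 5.90 in UWKOS2, UWKOS6 and UWKOS8. At these values it is not known to lie above background. Without the filter the difference was -0.31 (limma adjusted p = 0.408).

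**Figure D3:**
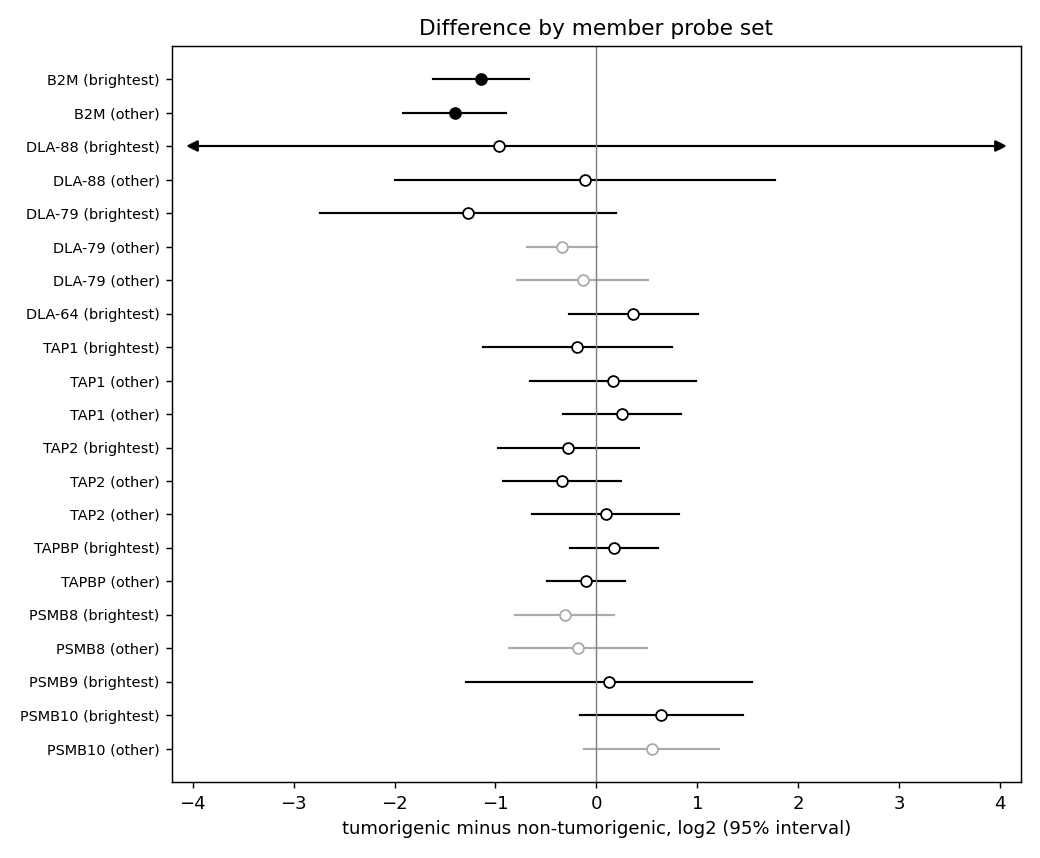
Difference between the groups (horizontal axis, tumorigenic minus non-tumorigenic, log2) with its 95% interval from limma for the 21 member probe sets, the brightest of each gene first. Filled points passed, grey ones lay below the filter and come from the fit without it, and arrowheads mark an interval that runs beyond the axis; the 2 B2M probe sets, at -1.14 and -1.40, are the ones that passed.

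Other genes of antigen presentation were read from 8 lists with 87 genes, of which 60 were tested. Of these 3 rose and 2 fell, or 8.33%, beside 12.1% of all tested genes, with a median of -0.06. THOP1, ATF1 and PTPN2 rose, and IFNGR2 and LGALS9 fell. Each of these 5 lost its call in several alternatives, and without UWKOS6 or UWKOS8 none of the 60 passed.

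Among 9 tested genes for peptide loading and trimming 1 rose, 0 fell and 8 did not pass. THOP1, a cytosolic peptidase that degrades peptides before they reach TAP, read 11.01, 10.04 and 10.08 in UWKOS1, UWKOS3 and UWKOS7 and 9.12, 8.81 and 8.40 in UWKOS2, UWKOS6 and UWKOS8. It rose by 1.60 (SE 0.33, limma adjusted p = 0.0324), and its other probe set rose by 2.06. TAPBPL, a tapasin-related peptide editor, differed by -0.72 (limma adjusted p = 0.0961) and PDIA3, the oxidoreductase of the loading complex, by -0.63 (limma adjusted p = 0.186). The chaperones CALR and CANX differed by -0.23 and -0.15 and the trimming peptidase ERAP1 by 0.24, none past the threshold.

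Of 6 tested constitutive proteasome and activator subunits 0 passed, 5 were higher on average and the median was 0.29. The activator PSME3 differed by 0.66 (limma adjusted p = 0.0502) and the catalytic subunit PSMB6, which PSMB9 replaces, by 0.59 (limma adjusted p = 0.0896). PSME4 differed by -0.74 on its brightest probe set and by 0.94 and 0.54 on its other 2, of which the first passed at the level of probe sets (limma adjusted p = 0.0251), so its direction is not settled. The interferon-induced activator subunits PSME1 and PSME2 differed by 0.26 and 0.28.

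The list of class I transcription factors held 14 tested genes, among them EZH2, which is a histone methyltransferase and not such a factor. Of the 14, 1 rose, 0 fell and 13 did not pass. ATF1, a factor of the CREB family, read 8.17, 7.77 and 8.17 in UWKOS1, UWKOS3 and UWKOS7 and 6.99, 6.89 and 6.67 in UWKOS2, UWKOS6 and UWKOS8. It rose by 1.18 (SE 0.19, limma adjusted p = 0.0197). IRF9, the DNA-binding subunit of the interferon-alpha response complex, differed by -1.29 on its brightest probe set (limma adjusted p = 0.0654), and its other probe set fell by 0.67 (limma adjusted p = 0.0383 over all probe sets). NFYB, a subunit of the CCAAT-binding factor, differed by 0.58 (limma adjusted p = 0.0749). IRF1, which drives interferon-induced class I genes, differed by -0.07, and NLRC5, the class I transactivator, lay below the filter, at 5.68 to 6.07.

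In the list of interferon receptors and their kinases 1 of 8 tested rose, 1 fell and 6 did not pass. IFNGR2, a chain of the interferon-gamma receptor, read 10.79, 10.96 and 10.72 in UWKOS1, UWKOS3 and UWKOS7 and 11.36, 11.97 and 11.81 in UWKOS2, UWKOS6 and UWKOS8. It fell by 0.89 (limma adjusted p = 0.0414), while its other tested probe sets differed by -0.91, -0.79 and 0.14 and none of these passed. Relative to the hybridization controls it did not pass either (-0.72, limma adjusted p = 0.0710). PTPN2, a phosphatase that switches off JAK-STAT signalling, read 8.66, 9.18 and 8.39 in the tumorigenic lines and 7.75, 7.56 and 6.95 in the non-tumorigenic lines. It rose by 1.32 (limma adjusted p = 0.0392), and its other probe set rose by 1.18. The partner chain IFNGR1 differed by -0.17 and JAK2 by -0.41 (limma adjusted p = 0.239).

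Of 12 measured class II genes 6 were dim, among them CD74, the invariant chain, at 4.41 to 5.22 and DLA-DRA at 3.83 to 4.84. Of the 6 tested 0 passed, and the median was -0.22. CTSS, the cathepsin that degrades the invariant chain, read 11.37 in UWKOS6 and 11.14 in UWKOS8 but 7.05 in UWKOS2, and 6.07, 5.57 and 6.43 in UWKOS1, UWKOS3 and UWKOS7. Its difference of -3.83 rests on UWKOS6 and UWKOS8 and did not pass (limma adjusted p = 0.0745). IFI30, a lysosomal thiol reductase induced by interferon-gamma, differed by -0.98 (limma adjusted p = 0.0641), and DLA-DOA by -0.27.

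Among 5 tested ligands for NK cells and checkpoint receptors LGALS9 fell, 0 rose and 4 did not pass. LGALS9, a galectin, read 6.08, 6.15 and 6.18 in UWKOS1, UWKOS3 and UWKOS7 and 6.77, 6.67 and 6.73 in UWKOS2, UWKOS6 and UWKOS8, all close to the filter. It fell by 0.59 (limma adjusted p = 0.0428), a call that was lost with centring on the spiked hybridization controls (limma adjusted p = 0.115). ICAM1 differed by -0.71 and PVR, the ligand of DNAM-1 and TIGIT, by -0.11. CD274, the checkpoint ligand PD-L1, lay below the filter at 4.75 to 5.54.

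Of 10 tested genes for export, retention and turnover of class I molecules 0 passed, with a median of 0.05. The smallest p-values there belonged to SEC24D (-0.61), DERL1 (0.56) and SEC61A1 (-0.61). The class I-like chains measured were FCGRT, which binds IgG together with beta-2-microglobulin and differed by -1.20 (limma adjusted p = 0.212), and PROCR, which differed by -0.58 (limma adjusted p = 0.633).

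**Figure D4:**
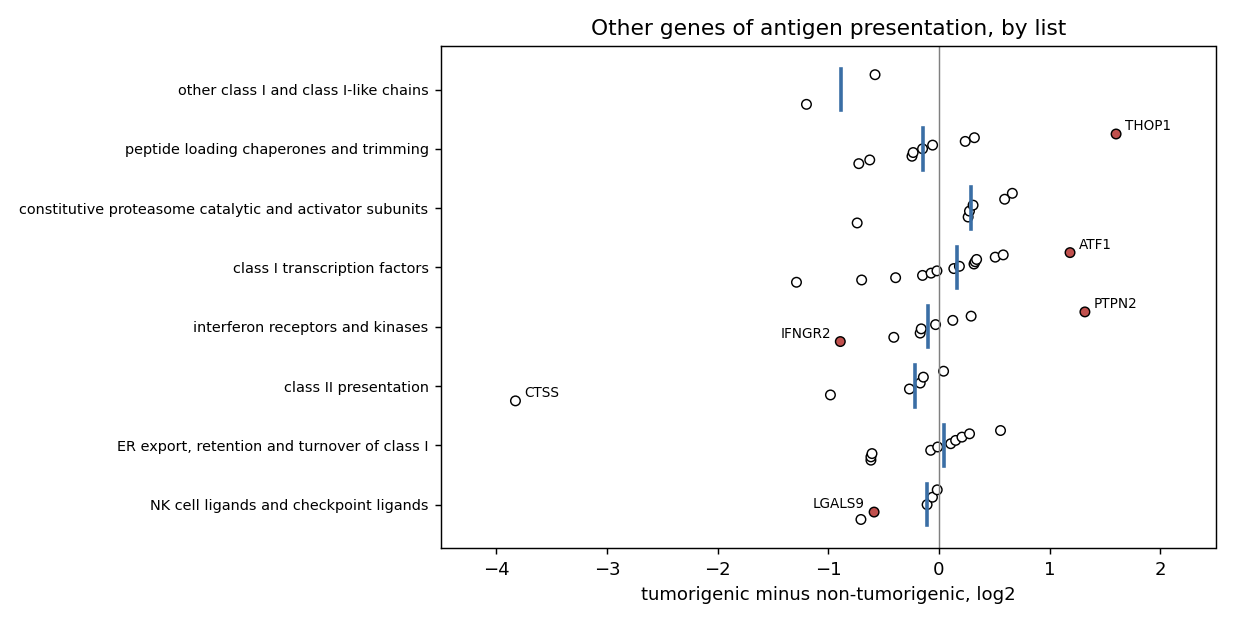
Differences (horizontal axis, tumorigenic minus non-tumorigenic, log2) of the 60 tested genes in 8 lists of antigen presentation, each point a gene and each blue bar the list median. Filled points passed limma at an adjusted p of 0.05: THOP1, ATF1 and PTPN2 higher, IFNGR2 and LGALS9 lower; CTSS at -3.83 is named and did not pass.

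The genes whose values over the 6 lines were most like B2M, among 9136 tested genes that are no members, were TUSC3 (Pearson r of 0.9965), TNFAIP1, ACADVL, RAB30 and ABHD14A (0.9949 for the last). Each was lower in every tumorigenic line, and TUSC3, an oligosaccharyltransferase subunit, read 9.37, 9.63 and 9.69 there and 10.67, 10.93 and 11.10 in UWKOS2, UWKOS6 and UWKOS8. With 6 lines and this many genes, values of r this high are a description only. The mean of the 9 tested members, each centred on its own mean, was most like STK40 (r of 0.96), SOD3, KIF5C, SAT1 and INSIG2 (r of 0.94). That mean was lowest in UWKOS7 and UWKOS8, at -0.46 and -0.53, the 2 lines with the low DLA-88 values. DLA-88 read 2.30 and 2.22 there, against its own mean of 8.23 over the 6 lines. Its range of 10.04 was the largest among the tested members, so it weighed most on the shape of that mean. The genes named last are therefore not shown to be like the members as a set. Likeness to a mean without DLA-88 was not tested.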

How the data were processed

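The deposited table held log2 expression values, 1 array per line, from Affymetrix canine arrays. The submitters' processing notes name only MAS5, with no version. The authors' log2 columns have nearly equal quantiles, so how they were summarised is not settled here. Values were used as deposited, with no offset, and 0 columns were left out. Control probe sets (111) were kept apart. Symbols came from the platform annotation, which can be old; where the gene ID was in RefSeq's gene table (assembly UU_Cfam_GSD_1.0) the symbol there was taken. DLA88 was matched to DLA-88, its synonym in RefSeq, and B2M kept the annotation's symbol. Of the non-control probe sets 439 had several symbols and 13231 none; none of these named a gene. Tested were probe sets with a mean at or above 6.07, with limma 3.58.1 (lmFit, eBayes, no covariate) in R 4.3.3 and Benjamini-Hochberg adjustment over all genes or probe sets tested. The members and lists were chosen with earlier results of these data known. Named were all members and, of each other list, every passing gene and the smallest p-values up to 3 genes; ERAP1, CALR, CANX, IRF1, NLRC5, PSME1, PSME2, IFNGR1, CD74, DLA-DRA and CD274 were added after their values were seen. Likeness was Pearson r over the 6 lines, 5 genes each. The fit was tested first on simulated data at the level of probe sets, with 50 changed probe sets for each size of log2 difference. It recovered 30% of differences of 1, 58% of 2, 86% of 4 and 100% of 6, with 9 false calls. A true difference near 1 would thus often not pass. Replicate numbers follow accession order and pair nothing. Figures were drawn with matplotlib 3.10.9.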

Additional observations from a re-analysis of the deposited data

How the results depend on the processing

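B2M stayed lower in all 15 alternatives, by 0.91 to 1.27 on the log2 scale, and past the threshold in 10 (limma adjusted p from 0.018 to 0.387). The count of members that passed was 1 of 9 and became 0 with the GAPDH covariate and without both UWKOS6 and UWKOS8, and 0 to 1 with any 1 line left out. Member probe sets that passed went from 2 to 0 in both of these settings and to between 0 and 2 with 1 line left out, and the other genes of presentation from 5 to 0, and to between 0 and 5. Fewer genes passed in these fits altogether: 10 of 9145 with the covariate, 1 without both lines, 12 without UWKOS6, 333 without UWKOS8 and 356 without UWKOS3, against 1109. The cause was not tested. Signs that turned all belonged to members that did not pass: DLA-88 ran from -4.21 to 1.76 with 1 line left out, TAP1 from -0.57 to 0.22 and PSMB9 from -0.56 to 0.57. TAP1 was 0.0769 as the mean of its probe sets, and TAPBP -0.0843 without both lines. Of 219 values of single genes 165 kept direction and side, 46 lost the threshold, 0 gained it and 8 turned. The other DLA-88 probe set, chosen after the data were seen, kept the sign. Centring on the hybridization controls moved the median of all genes by 0.17; B2M was then -0.97 (limma adjusted p = 0.0329). No paired analysis was possible because the labels give the lines no shared replicate numbers. Detection calls were not used, so DLA-64, DLA-79 and PSMB8 are not known to lie above background.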

Other observations

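The low reading of the brightest DLA-88 probe set in UWKOS7 and UWKOS8 was set beside the other probe sets of the array, with marks chosen after the values were seen. Of 5280 probe sets above 9 in UWKOS1, UWKOS2, UWKOS3 and UWKOS6, 1 was below 3 in both UWKOS7 and UWKOS8, and it was this one. With UWKOS7 near the lowest value of the array, no size is given for the gap.

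UWKOS6 and UWKOS8 were the 2 highest lines for 3 of the 9 tested members, B2M, DLA-79 and PSMB9, and for 14.4% of the 9145 tested genes, an order that was picked after the values were seen. Of the 60 tested genes of the other lists, CTSS, DLA-DOA, FCGRT, IFNGR2, IRF9, JAK2, PVR, RFX5, SEC24D, STAT2 and TAPBPL had it as well. The same lines had the highest 3-prime to 5-prime ratios on both actin control pairs (1.35 and 0.97, 3.49 and 3.31). The mean ratio was higher in the non-tumorigenic than in the tumorigenic lines on all 4 control pairs, for example 0.76 against 0.49 on the first GAPDH pair. The two-sided exact permutation p lay between 0.2 and 0.4, and since 3 against 3 lines cannot go below 0.1, these tests could not pass. The part of these ratios in the values of B2M, DLA-79 and PSMB9 beyond the fits already given was not tested.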
